A study of Mus musculus with 7 samples.

Results

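The genes described here are those of TGF-β, activin and bone morphogenetic protein (BMP) signalling. They were taken from the deposited count table by symbol: every Bmp, Gdf, Smad, Tgfb or Id gene followed by a number, together with named receptors, inhibin and activin subunits and secreted antagonists. This gave 56 of the 55536 genes in the table: 26 ligand genes, the protease gene Bmp1, 5 secreted antagonists, 12 receptors, 8 Smad genes and 4 Id genes. Of the 56, 55 had at least 1 count in some library, 39 had a mean of at least 10 normalized counts over the 7 libraries, and 37 received an adjusted p-value in the comparison below. Gdf1 had 0 counts in every library, which allows up to 3 counts each (counting error only).

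RNA was sequenced from pancreatic alpha cells, the glucagon-producing cells of the islet, sorted by tdTomato fluorescence from mouse islets. The 4 control libraries came from Nkx2.2+/+;Gcg-iCre;Rosa26:tdTomato mice and the 3 knockout (KO) libraries from Nkx2.2fl/fl;Gcg-iCre;Rosa26:tdTomato mice, so both groups carried the Cre driver and the reporter and differed in the floxed Nkx2-2 alleles. Cre made from the glucagon gene acts wherever that gene is or was active, and the red label is permanent, so the sort also keeps cells that no longer make glucagon. The series design text states the question as how NKX2.2, a homeodomain transcription factor of islet cells, regulates genes in alpha cells in vivo. The labels used here give no ages and do not say whether a library is 1 animal or a pool, so p-values measure the spread between these libraries.

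TGF-β, activins and BMPs are secreted dimers that bring type II and type I receptor kinases together on the receiving cell. The type I receptors then phosphorylate receptor Smads, SMAD2 and SMAD3 for TGF-β and activin and SMAD1, SMAD5 and SMAD9 for BMPs, which enter the nucleus with SMAD4. The Id genes, which encode partners that keep basic helix-loop-helix factors off DNA, are classical targets of the BMP branch, and SMAD7 is a feedback inhibitor of the pathway. In the islet, activin and TGF-β signals are known to bear on endocrine identity and hormone output.

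Library totals ran from 45483504 to 72456557 counts. The deepest were control 4 and a KO library that the table numbers unlike any sample title, called the unnumbered KO library here. The alpha cell markers Gcg, Irx1, Irx2, Ttr, Slc7a2 and Gc had counts in all 7 libraries, and Gcg took 11.4% to 13.5% of control and 5.87% to 7.39% of KO counts. Nkx2-2 itself had 10468 ± 1618 normalized counts (SD, n = 4) in controls against 7662 ± 115 (SD, n = 3), lower by a log2 fold change of -0.45 with an SE of 0.13 (DESeq2 adjusted p 0.0223, edgeR 0.152). All 3 KO libraries were below all 4 controls, and these counts cover the whole gene, while the labels do not say which exons are floxed. Markers of other islet cells were also present, with summed levels of the beta cell list from 333932 to 684159 in controls and 524774 to 965437 in KO, and of the delta cell list from 196263 to 398978 and 355301 to 632402. Y-linked transcripts were at 0.04% and 0% of the highest library in controls 1 and 2, at 77.3% and 78% in controls 3 and 4, at 14.8% and 30.8% in KO 1 and KO 2, and highest in the unnumbered KO library, so the mix of sexes differed between libraries.

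In KO alpha cells 3 of the 4 Id genes, the ligand gene Tgfb2 and the protease gene Bmp1 changed. A call is an adjusted p under 0.05 in DESeq2. Of the 37 members with an adjusted p-value 5 were called (13.5%), Tgfb2, Id4 and Bmp1 higher and Id3 and Id1 lower, beside 4.39% of the 18023 genes tested (2.19% higher and 2.2% lower). Without the Id genes it was 2 of 33 (6.06%), near that background. In the quasi-likelihood test of edgeR 1 of 40 was called, beside 1.05% of the 19310 genes tested (0.404% higher and 0.647% lower). At an unadjusted p under 0.05 it was 9 of 37, beside 12.0% of all genes tested. The groups were fully apart for 5 of the 37, beside 11.9% of all genes tested. The median log2 fold change was 0.03 over the 37 members and 0.01 over all genes tested. With counts scaled to library totals, which moves the median of all genes by 0.10, the same 5 members were called, but the 983 calls over all genes were 69.7% higher in KO against 49.8% of the 791 calls here.

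The called Id genes did not move together: Id3 (chromosome 4, 136143497 to 136145755, plus strand, GRCm38) and Id1 were lower and Id4 was higher in KO alpha cells. Normalized counts, which are counts divided by the DESeq2 size factor of the library, were 362, 179, 377 and 385 for Id3 in controls 1 to 4, against 121 (KO 1), 84.7 (KO 2) and 83.0 (unnumbered KO). All 3 KO libraries lay below all 4 controls, with control 2 the lowest control. The mean fell from 326 ± 98.1 (SD, n = 4) to 96.3 ± 21.6 (SD, n = 3), 29.6% of the control level, or -1.76 on the log2 scale with an SE of 0.33 (DESeq2 adjusted p 1.3e-05). Of the 56 members, Id3 alone also passed the threshold of 0.05 in the quasi-likelihood test of edgeR (adjusted p 0.046). It stayed past it in DESeq2 without any 1 of the 7 libraries, while edgeR without control 4 gave 0.0531.

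Id1 (chromosome 2, 152736251 to 152737410, plus strand, GRCm38) had 319.9, 243, 533 and 317 normalized counts in the controls and 160.4, 169 and 78.5 in KO. The groups again did not overlap, with control 3 the highest and the unnumbered KO library the lowest. The mean fell from 353 ± 125 to 136 ± 50.1, or -1.38 on the log2 scale with an SE of 0.36 (DESeq2 adjusted p 0.00508, edgeR 0.143). Without control 3 the log2 fold change was -1.11 (adjusted p 0.0663) and without the unnumbered KO library -1.10 (0.0502), so each of these libraries decided the call.

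Id4 (chromosome 13, 48261228 to 48266026, plus strand) went the opposite way. It had 365, 535, 265 and 146 normalized counts in the controls and 831, 1082 and 675 in KO. Every KO library was above every control, and the controls themselves spread from 146 in control 4 to 535 in control 2. The mean rose from 328 ± 165 to 863 ± 206, or 1.40 on the log2 scale with an SE of 0.36 (DESeq2 adjusted p 0.00487, edgeR 0.152). Without KO 2 it was 1.20 with an adjusted p of 0.105. With the Y-linked level as a covariate, a fit chosen after the data were seen, it was 1.60 (1.06e-06).

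Id2 did not pass the test. Its libraries held 389, 298, 413 and 339 normalized counts in controls and 301, 314 and 254 in KO, overlapping between 298 and 314. The log2 fold change was -0.31 (SE 0.21, adjusted p 0.681).

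**Figure D1:**
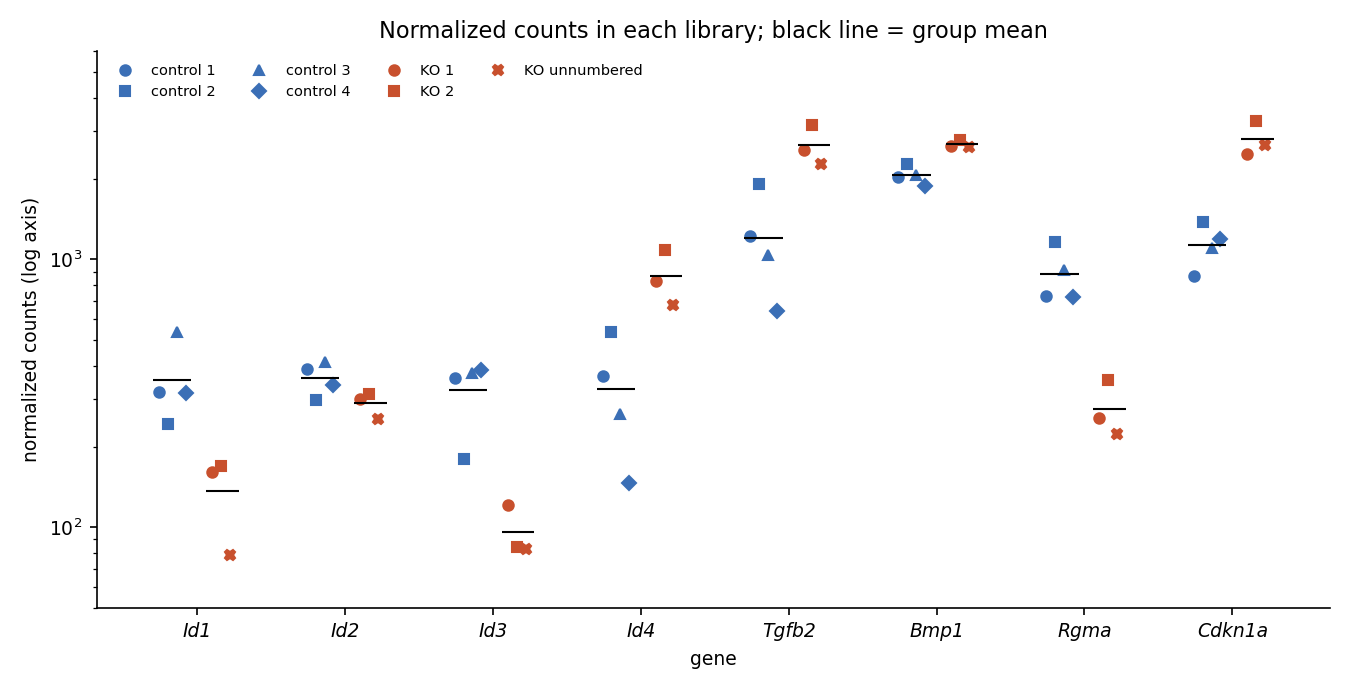
Normalized counts (log axis) of the 4 Id genes, Tgfb2, Bmp1, Rgma and Cdkn1a in each library, blue for the 4 controls and red for the 3 KO libraries, with a black line at each group mean. The groups are apart for every gene shown except Id2; Id1, Id3 and Rgma are lower in KO and Id4, Tgfb2, Bmp1 and Cdkn1a are higher.

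The make-up of the Id transcripts differed between the groups, while their sum overlapped. Counted per kilobase of exon, so that genes of different length can be compared, the 4 Id genes together were at 719 ± 142 in the 4 controls and 514 ± 108 in the 3 KO libraries (SD). Id4 made up 13.0%, 24.4%, 7.59% and 5.70% of that sum in controls 1 to 4, against 39.6% (KO 1), 46.6% (KO 2) and 44.5% (unnumbered KO). Id1 was the leading Id transcript in each control, at 36.7% to 50.6% of the sum, and Id4 in each KO library. The share of Id2 stayed between 18.7% and 26.5% in all 7 libraries. The ratio of Id4 to Id3 normalized counts was 1.01, 2.99, 0.705 and 0.379 in the controls and 6.85, 12.8 and 8.13 in KO. These shares and ratios were chosen after the single genes had been seen and are given as a description.

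**Figure D2:**
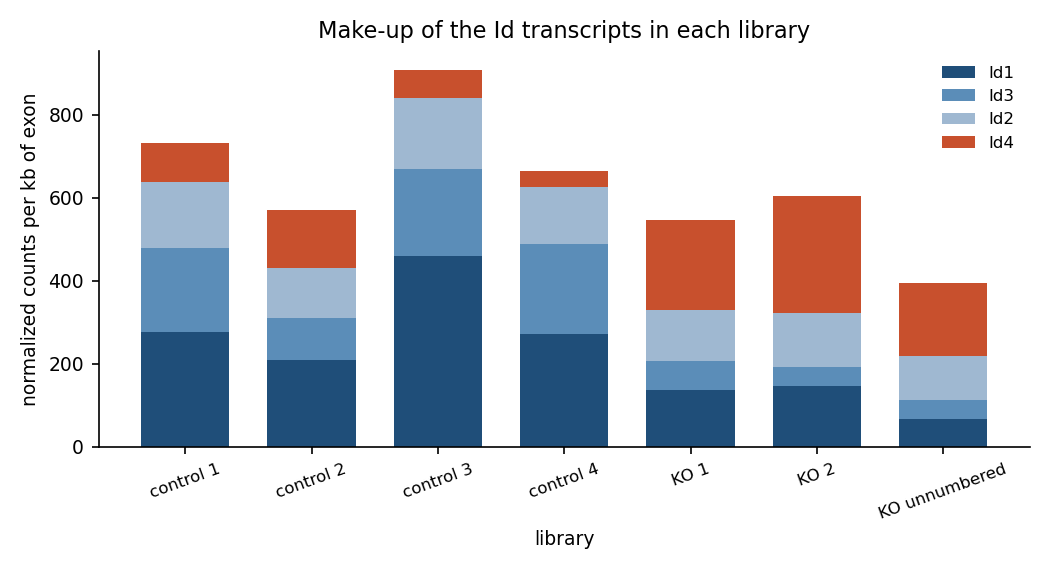
Stacked bars of Id1, Id3, Id2 and Id4 levels in each library, in normalized counts per kilobase of exon. The red Id4 segment is 5.70% to 24.4% of the bar in controls and 39.6% to 46.6% in KO, while the dark blue Id1 and mid blue Id3 segments are smaller in KO.

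Vascular endothelium is a known site of high Id1 and Id3 expression, so its markers were measured in the same libraries. All 8 endothelial markers had counts in every library, none at 0, but low: their summed level was 430 to 694 normalized counts in controls and 408 to 1209 in KO, and 0 of 8 passed in DESeq2 (1 at an unadjusted p under 0.05; edgeR called 0 of 8). Esam was the largest part of the control sums, with a mean of 288 in controls and 255 in KO. The other markers, Pecam1, Cdh5, Kdr, Flt1, Tek, Plvap and Emcn, had higher means in KO, and each was highest in KO 2. KO 2, with 1209, had the highest endothelial sum, and KO 1, with 408, had the lowest. The mesenchymal list summed to 1407 to 3948 in controls and 2320 to 4224 in KO, and 0 of the 6 that were tested passed in DESeq2 (0 at an unadjusted p under 0.05; edgeR called 0 of 6). Of this list 6 of 8 had counts in every library. Neither sum separated the groups, and the part of these cells in the fall of Id1 and Id3 was not tested. Whether fewer cells of a type or less RNA per cell underlies any difference cannot be told apart in such bulk samples.

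The start regions of the Id genes are shown because the family divides in its response. RefSeq (GRCm38.p6) gave upstream sequence for 39 of the 56 members, not for Id1. In the 250 bases before the RefSeq start, both strands were searched for GGCGCC (letters bound by SMAD1 and SMAD5 with SMAD4), CAGAC (the SMAD box) and AAGTG (the core preferred by NK2-class homeodomains such as NKX2.2), and matches are in capitals. The window of Id4 (chr13:48260866-48261115, plus strand, upstream of the start of the gene in GENCODE M21 as well) holds a single GGCGCC, 148 bases before the RefSeq start, and neither of the other motifs. The windows of Id2 and Id3 lie within an exon of these genes in GENCODE M21, so just the matches with 10 bases on each side are shown: GGCGCC in Id2 (chr12:25096308-25096333, minus strand) and CAGAC in Id3 at chr4:136143645-136143669 and, read on the other strand, at chr4:136143744-136143768 (plus strand).
Id4: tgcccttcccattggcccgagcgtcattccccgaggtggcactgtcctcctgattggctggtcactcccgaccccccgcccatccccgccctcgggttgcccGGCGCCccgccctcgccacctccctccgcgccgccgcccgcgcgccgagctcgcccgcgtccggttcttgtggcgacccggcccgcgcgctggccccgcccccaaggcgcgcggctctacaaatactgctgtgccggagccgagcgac
Id2: aggccccctgGGCGCCcagcgcacac
Id3: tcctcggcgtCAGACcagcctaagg
Id3: acccttggcgGTCTGttttgaataa

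GGCGCC thus stands in the windows of both Id4, which rose, and Id2, which was not called, and in neither of these nor Id3 was AAGTG found. Among all 32851 RefSeq windows of this length, 9.59% held GGCGCC, 42.2% CAGAC and 40.7% AAGTG. Among the 47 windows of the members the shares were 21.3%, 44.7% and 25.5%. A match is a run of letters and not a bound site.

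Among the ligand genes, Tgfb2 was the single call. It encodes TGF-β2, and in the mean over the 7 libraries was the most abundant ligand gene after Inha per exon length. In KO 2 it was above Inha, at 549 against 462 normalized counts per kilobase. Tgfb2 (chromosome 1, 186622792 to 186705989, minus strand) had 1217, 1904, 1041 and 642 normalized counts in controls 1 to 4, against 2565 (KO 1), 3177 (KO 2) and 2271 (unnumbered KO). The lowest KO library was above the highest control, control 2. The mean rose from 1201 ± 527 (SD, n = 4) to 2671 ± 462 (SD, n = 3), 222% of the control level, or 1.15 on the log2 scale with an SE of 0.29 (DESeq2 adjusted p 0.00292, edgeR 0.143). The call was lost without KO 2 (log2 fold change 1.01, adjusted p 0.0604) and in the 5 libraries left without the 2 deepest (1.05, 0.0780). With the Y-linked covariate the log2 fold change was 1.30 (1.08e-06). This fit and the one without the 2 deepest libraries were chosen after the data were seen.

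Markers of gamma and duct cells were measured in the same libraries. The gamma cell hormone gene Ppy ran from 178540 to 401493 normalized counts in controls, highest in control 2, and from 615185 to 783711 in KO, a rise of 1.51 on the log2 scale with an SE of 0.23 (DESeq2 adjusted p 2.59e-08, edgeR 0.0474). The 6 duct and epithelial markers, all with counts in every library, summed to 14827 to 23452 in controls, highest in control 2. In KO they summed to 22967 to 29709, and most of each sum was Krt7 and Epcam. Of the 6, 2 rose in DESeq2, Spp1 and Epcam, beside 2.19% of all genes tested. EdgeR called 0 of 6 (adjusted p 0.146 and 0.198 for these). Sox9 and Cftr were above every control in every KO library without a call (DESeq2 unadjusted p 0.0123 and 0.0119, adjusted p 0.173 and 0.169). Mean Sox9 went from 267 to 861 normalized counts and Cftr from 18.2 to 64.8, both highest among controls in control 2. Krt7 and Krt19 overlapped between the groups (DESeq2 adjusted p 0.779 and 0.987). The part of gamma, duct, beta and delta cells in the rise of Tgfb2 and Id4 was not tested.

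The upstream window of Tgfb2 (chr1:186705990-186706239, minus strand) is shown beside that of Id4 as the other strongly raised member. It holds CAGAC at 221 and 204 bases and AAGTG, read on the other strand as CACTT, at 69 bases before the RefSeq start. An exon of Gm29491, a noncoding gene on the opposite strand, overlaps this window, and 2.14% of the exon length of Tgfb2 lies under exons of the opposite strand.
Tgfb2: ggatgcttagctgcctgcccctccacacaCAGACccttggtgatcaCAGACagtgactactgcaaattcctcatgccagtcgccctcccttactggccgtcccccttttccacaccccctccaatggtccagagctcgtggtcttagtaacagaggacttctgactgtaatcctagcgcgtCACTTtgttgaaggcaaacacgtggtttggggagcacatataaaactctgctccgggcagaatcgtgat

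Of 26 ligand genes, 11 received an adjusted p-value, 1 rose and 0 fell in DESeq2 (2 at an unadjusted p under 0.05; edgeR called 0 of 13). The most abundant per exon length, in the mean over the 7 libraries, was Inha, the inhibin α subunit that diverts activin β subunits into inhibin. Inha had 681, 718, 743 and 825 normalized counts in controls and 673, 682 and 987 in KO. Its log2 fold change was 0.07 (SE 0.19, adjusted p 0.999). The activin β subunit genes were far lower: Inhba, for activin A, had 31.8, 49.5, 34.0 and 57.8 normalized counts in controls and 31.3, 37.2 and 34.1 in KO. Its log2 fold change of -0.35 (SE 0.49, adjusted p 0.979) came with overlapping groups, and at 26 to 80 counts per library its 95% interval ran from -1.31 to 0.62. Per kilobase, Inha stood at 503 ± 41.5 in controls, Inhbb, for activin B, at 12.8 ± 8.53 and Inhba at 6.77 ± 1.96.

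Bmp3, a BMP family ligand that antagonizes BMP signals, had 1028, 1089, 536 and 526 normalized counts in controls and 1775, 952 and 1145 in KO. KO 2 lay below controls 1 and 2, and the log2 fold change of 0.70 (SE 0.31) was not past the threshold (adjusted p 0.248). With a term for the 2 deepest libraries or with the Y-linked covariate, both chosen after the data were seen, its adjusted p was 0.0404 and 0.00443. The remaining ligand genes with an adjusted p (Tgfb1, Tgfb3, Bmp2, Bmp6, Bmp7, Gdf11 and Inhbb) had log2 fold changes between -0.30 and 0.39. Of the 15 ligand genes without an adjusted p, 14 had a mean below 10 normalized counts and Gdf10 had 10.1. Bmp8a and Bmp8b, close copies whose reads can be shared, had control means of 1.67 and 6.55.

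Bmp1, in spite of its name, encodes a secreted astacin protease that trims procollagens and cuts the antagonist chordin. It had 2025, 2263, 2069.5 and 1878 normalized counts in controls and 2641, 2782 and 2633 in KO, a small rise with little spread. The mean went from 2059 ± 159 to 2685 ± 84.0, 130.4% of the control level, or 0.38 on the log2 scale with an SE of 0.11 (DESeq2 adjusted p 0.0144, edgeR 0.0969). The groups did not overlap, but the adjusted p stayed under 0.05 in just 1 of the 7 fits that left out a library, the one without control 2, and was 0.0692 to 0.169 in the others.

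Of the secreted antagonists, which bind ligands outside the cell, 2 of 5 received an adjusted p-value and 0 passed in DESeq2 (0 at an unadjusted p under 0.05; edgeR called 0 of 3). Chrd, encoding chordin, was the highest per exon length, with 318, 359.7, 353 and 325 normalized counts in controls and 386, 428 and 287 in KO (log2 fold change 0.11, SE 0.21, adjusted p 0.990). Fstl3, a follistatin-like activin binder, was at 0.34 on the log2 scale (SE 0.47, adjusted p 0.977), which did not pass. For Fstl3, 47.3% of the exon length lies under exons of the opposite strand, so its counts are uncertain. Fst, Nog and Grem1 were at 11.1 normalized counts or less in both group means.

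All 12 receptor genes were measured and 0 of them passed in DESeq2 (1 at an unadjusted p under 0.05; edgeR called 0 of 12). With 4.39% of all genes called and 12.0% at an unadjusted p under 0.05, so few calls among 12 genes do not set the receptors apart. The most abundant type I receptor per exon length was Bmpr1a, the BMP receptor ALK3, with 4885, 4942, 4704 and 3918 normalized counts in controls and 5081, 5231 and 4534 in KO. Its log2 fold change was 0.10 (SE 0.12, adjusted p 0.956), with a 95% interval from -0.14 to 0.34. Acvr1b, the activin receptor ALK4, followed, with 485 ± 32.2 normalized counts per kilobase in controls and 497 ± 51.4 in KO. Bmpr1b and the endothelial type I receptor gene Acvrl1 were at 5.87 ± 5.33 and 6.81 ± 4.85 per kilobase in controls, far below Bmpr1a at 726 ± 74.6.

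Among type II receptors the activin receptors Acvr2b and Acvr2a and the BMP receptor Bmpr2 were close in level, at 324 ± 45.4, 288 ± 4.27 and 228 ± 12.1 per kilobase in controls, and Tgfbr2, the receptor that binds TGF-β itself, was at 8.44 ± 3.03. Acvr2b had 1222, 1500.3, 1072 and 1300.1 normalized counts in controls and 1195, 1211 and 1288 in KO (log2 fold change -0.05, SE 0.15, adjusted p 0.999). The KO libraries lay inside the control range. Tgfbr2 was at 12.7 ± 6.05 per kilobase in KO, and its log2 fold change of 0.59 (SE 0.46, adjusted p 0.796) was imprecise at this level.

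Tgfbr3, the co-receptor betaglycan, which presents TGF-β2 and inhibin to the signalling receptors, had 1423, 1906, 1249.8 and 991 normalized counts in controls and 2029, 2165 and 1666 in KO. The unnumbered KO library lay below control 2, and the log2 fold change of 0.49 (SE 0.21) was not past the threshold (adjusted p 0.252 in DESeq2 and 0.432 in edgeR). Without control 2 it was 0.68 with an adjusted p of 0.00967. It was also past the threshold with a term for the 2 deepest libraries (0.54, 0.00878) and with the Y-linked covariate (0.57, 0.0116), both chosen after the data were seen.

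**Figure D3:**
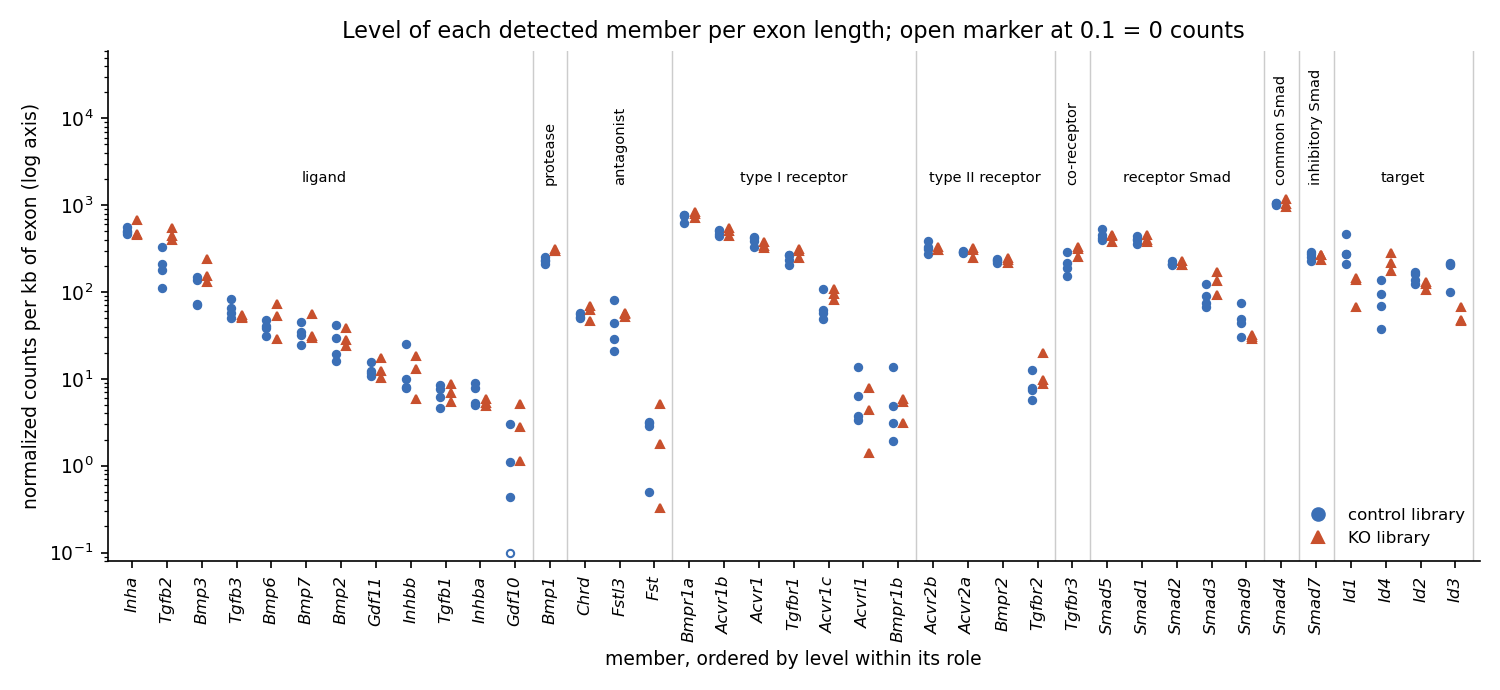
Level of the 39 members with a mean of at least 10 normalized counts, in normalized counts per kilobase of exon (log axis), with 1 point per library, blue circles for control and red triangles for KO, ordered within each role. Smad4, Bmpr1a and Inha lead their roles in the mean over the 7 libraries, with ranges of 950.2 to 1169, 617 to 824 and 456 to 669. In KO 2 Tgfb2 (549) is above Inha (462). Inhba, Tgfbr2, Acvrl1 and Bmpr1b stay below 20.

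Of the 8 Smad genes, which carry the signal to the nucleus, 7 received an adjusted p-value and 0 passed in DESeq2 (2 at an unadjusted p under 0.05; edgeR called 0 of 7), which at the same background does not set the Smad genes apart either. Smad4, the common partner, had 3962, 3891, 3684 and 3819 normalized counts in controls and 3828, 4339.8 and 3527 in KO, and 0.02 on the log2 scale (SE 0.11, adjusted p 0.999). Smad5, the most abundant receptor Smad of the BMP branch, had 3355, 2926, 3936 and 3114 in controls and 3274, 3398 and 2777 in KO (log2 fold change -0.08, SE 0.14, adjusted p 0.987). Smad7, the inhibitory Smad, had 1145, 1319, 1245 and 1028 in controls and 1212, 1212 and 1051 in KO (log2 fold change -0.03, SE 0.14, adjusted p 0.999). In these 3 genes the KO and control libraries overlapped.

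For some genes the 95% intervals put a limit on what could have been missed at the DESeq2 size factors. For Smad1, Smad2, Smad4, Smad5 and Smad7, no bound of the interval lay beyond 0.36 on the log2 scale in either direction. The same held for the receptors Bmpr1a, Bmpr2, Acvr1b, Acvr2a and Acvr2b. Other intervals reached further, among them Acvr1 (-0.45 to 0.09), Tgfbr1 (-0.06 to 0.53) and Tgfbr3 (0.07 to 0.91). Those of Smad3 (0.05 to 1.10) and Smad9 (-1.32 to -0.06) did so too. The intervals leave out the choice of scaling: Bmpr1a, at 0.10 here, was at 0.20 when counts were scaled to library totals. Among the receptor Smads, Smad5 and Smad1 stood highest per exon length in all 7 libraries. Smad5 was at 374 to 531 and Smad1 at 360.4 to 451, which overlapped each other, while Smad2 was at 203 to 228 and Smad3 at 67.6 to 170.3. Smad6, the other inhibitory Smad, was near the floor, at 3.70 ± 4.95 normalized counts in controls and 9.23 ± 6.32 in KO.

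Smad3 and Smad9 had larger fold changes, without a call. Smad3, which binds DNA directly in the TGF-β and activin branch, had 374, 678, 413 and 503 normalized counts in controls and 742, 944 and 519 in KO (log2 fold change 0.58, SE 0.27, adjusted p 0.315). Smad9 had 236, 264, 396 and 164 in controls and 156, 174 and 162 in KO (log2 fold change -0.69, SE 0.32, adjusted p 0.316). Without control 4 the value for Smad9 was -0.86 with an adjusted p of 0.0292, and that library was the control within the KO range.

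**Figure D4:**
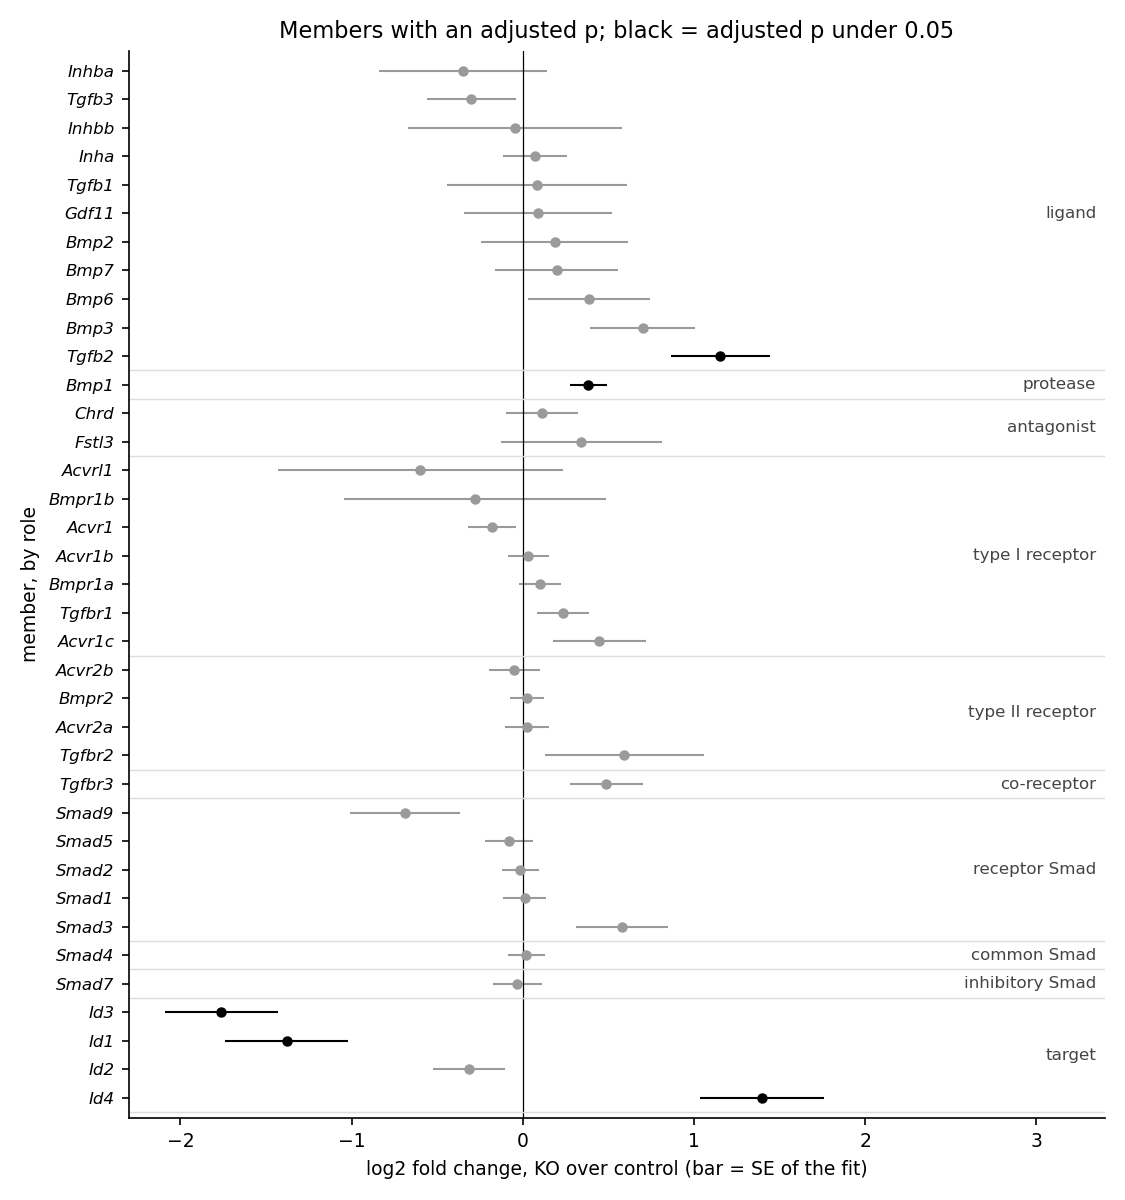
Log2 fold change of KO over control for the 37 members with an adjusted p-value, with bars of 1 SE, grouped by role and black where the adjusted p is under 0.05. Receptors and Smads lie between -0.69 and 0.59, and the calls are Tgfb2, Bmp1, Id3, Id1 and Id4.

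A list of 82 further genes of the pathway was examined in the same fit: 58 received an adjusted p-value, 1 rose and 2 fell in DESeq2, or 5.17% beside 4.39% of all genes tested, a share near the background. In edgeR 2 of 58 were called, beside 1.05% of all genes tested. The largest change was the fall of Rgma (chromosome 7, 73375509 to 73419899), whose product, a repulsive guidance molecule, is a membrane-anchored BMP co-receptor as well as a ligand of neogenin. Rgma had 727, 1163, 913 and 726 normalized counts in controls and 256, 353 and 222 in KO. The mean fell from 882 ± 207 to 277 ± 68.0, or -1.67 on the log2 scale with an SE of 0.24 (DESeq2 adjusted p 1.36e-09, edgeR 0.0157). All 7 fits that left out a library kept it past the threshold.

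Of the 20 listed targets 13 received an adjusted p-value. Cdkn1a, encoding the cell cycle inhibitor p21, is induced by TGF-β and by several other inputs, p53 among them. It had 867, 1375, 1099 and 1187 normalized counts in controls and 2479, 3268 and 2659.6 in KO, or 1.31 on the log2 scale with an SE of 0.18 (DESeq2 adjusted p 1.12e-10, edgeR 0.0114), and passed in all 7 fits that left out a library.

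Of the extracellular regulators and ligands, 20 were tested and 0 called in DESeq2 (2 at an unadjusted p under 0.05; edgeR called 0 of 20). Of the intracellular regulators, among them the ubiquitin ligases and corepressors that limit Smad activity, 21 were tested and 0 called (1 at an unadjusted p under 0.05; edgeR called 0 of 21), with log2 fold changes within 0.5 for 20 of the 21. Of the 4 tested receptors and decoys Rgma was the single call.

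**Figure D5:**
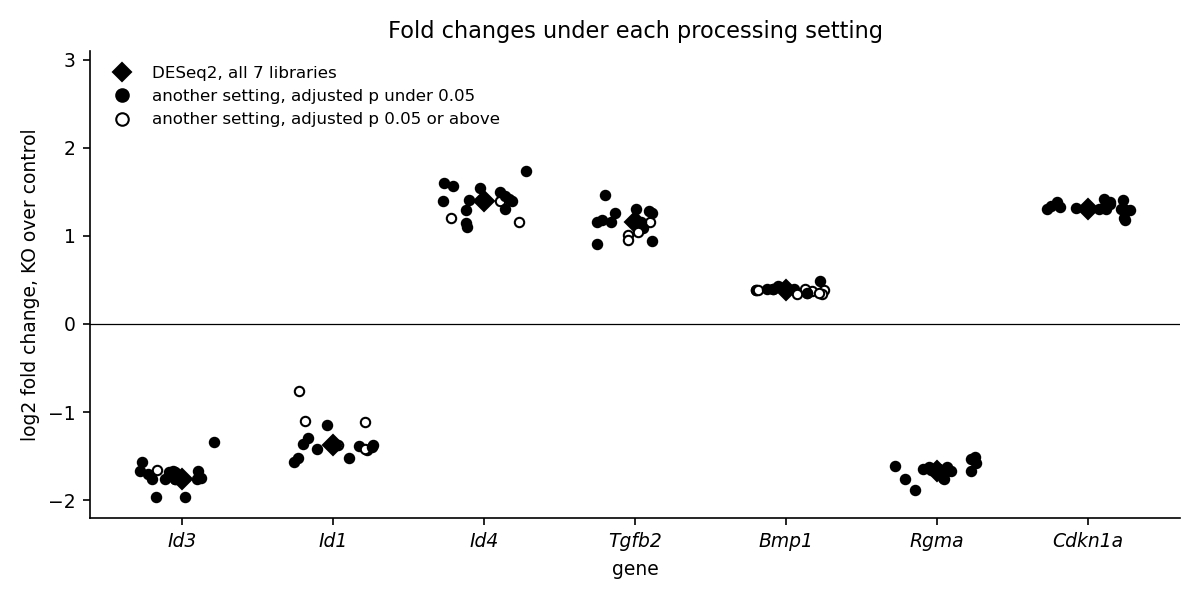
Log2 fold change of the 5 called members, Rgma and Cdkn1a, with a diamond for DESeq2 on all 7 libraries and a circle for each other processing setting, filled where the adjusted p is under 0.05. No setting changes a direction; Rgma and Cdkn1a are filled throughout, and Bmp1 is open in 9 of the 17 other settings.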

How the data were processed

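RNA-seq counts of 4 control and 3 KO libraries were analysed. The authors deposited raw counts per gene, and the submitters' processing notes name FastQC, STAR, featureCounts, DESeq2 and mm10. The strand setting of the counting is not given in the sources used here. Per the labels' protocols, libraries were made with a stranded total RNA kit for low input. Of the 7 count columns used, the KO column numbered 4 matched no KO title and is called the unnumbered KO library. Even numbers made up 84.4% to 88.9% of counts from 1 to 10, as when both mates of a pair are counted, so counting intervals are too narrow.

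KO was compared with control in DESeq2 1.42.0 (R 4.3.3; Wald test, no covariate, independent filtering at 0.05), the test the series design text names, with edgeR 4.0.16 (quasi-likelihood, TMM, default filter) beside it. P-values were Benjamini-Hochberg adjusted over all genes tested, and a call is an adjusted p under 0.05. Values after ± are SD. Exon lengths, positions and overlaps are from GENCODE M21 (GRCm38, the same assembly as mm10), which holds all 55536 identifiers. Full statistics are given for called members, Smad7 and Inhba, the highest member of each role and called pathway genes, of which 1 is not reported here. Smad3, Smad9 and Bmp3, with an unadjusted p under 0.05, and Id2, Inhbb and other members without a call were added after their values were seen. The members, gene lists and rules were chosen with earlier results of these data known. The scripts were tested on simulated data. Of the marker lists, the acinar sum ran from 238 to 8356 in controls and 1039 to 4416 in KO, the leukocyte sum from 1020 to 1579 and 941 to 1054 and the Schwann cell sum from 600 to 927 and 651 to 786. C1qa was the largest part of the leukocyte sum and was called lower in KO (mean 976 to 553, DESeq2 adjusted p 0.0116, edgeR 0.14). Ptprc, Cd68, Lyz2, Adgre1, C1qb and Cd74 had higher means in KO and Csf1r a lower one, without a call. For Cd74 (mean 89.6 to 261) the groups did not overlap. Alternatives were other scalings, filters and tests, leaving out each library, a replicate block and, added after seeing the data, fits without or with a term for the 2 deepest libraries and with a Y-linked covariate.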

Additional observations from a re-analysis of the deposited data

Results flagged for a closer look

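Dixon's criterion (95%) was applied to the 4 controls of 20 genes. It picked out 1 gene, and chance gives about 1 in 20. Id3 had 179 normalized counts in control 2, against 362 to 385 in the other controls. That library also held the most Id4 (535) and Tgfb2 (1904) of the controls. Without it the log2 fold change of Id3 was -1.96 (DESeq2 adjusted p 9.65e-10).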

How the results depend on the processing

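The 5 called members, Rgma and Cdkn1a all kept their direction under the 17 alternatives run. The number of genes past the threshold was 791 in DESeq2, 203 in edgeR, 249 in edgeR without control 4, 1380 with a term for the 2 deepest libraries, and 430 (without KO 1) to 898 when each library was left out. The number of members was 5 in DESeq2, 1 in edgeR and 0 in edgeR without control 4, where Id3 had an adjusted p of 0.0531. It was 2 (without KO 2) to 7 when each library was left out, with 3 without control 3 or without the unnumbered KO library. Of the further pathway genes 3 passed, 2 in edgeR, 2 to 6 (without control 3) when each library was left out, and 5 with the term for the 2 deepest libraries. Log2 fold changes near 0 changed sign without any call. With library totals Smad7 was at 0.070, Acvr2b at 0.052 and Smad5 at 0.016, and without the 2 deepest libraries Inha was at -0.079. When each library was left out, Smad7 ran from -0.094 to 0.033, Acvr2b from -0.12 to 0.039, Inha from -0.14 to 0.17, Chrd from -0.013 to 0.26, Smad5 from -0.14 to 0.0061 and Smad4 from -0.064 to 0.087. Where an alternative drops libraries fewer samples are fitted, and otherwise the cause was not tested.

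Replicate numbers are shared by just 2 pairs of libraries, whose deviations from the group means correlated at 0.213 and 0.285 over 14818 genes, and the labels do not say that a number marks a shared litter or day. KO 2 correlated best with control 3 (0.405). With the replicate block in these 4 libraries 579 genes, 3 members and 6 further pathway genes passed, Id1 was at -0.76 (adjusted p 0.518) and Bmp1 at 0.34 (0.278), and Inha was at -0.048 and Smad5 at 0.088 without a call. Depth limits the 17 members with a mean under 10 normalized counts.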

Other observations

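Tgfb2 and Id4 placed the 7 libraries in the same order: control 4 lowest, then control 3, control 1, control 2, the unnumbered KO library, KO 1 and KO 2. Of 18023 genes tested, 47 (0.261%) gave exactly this order, among them Tgfb2, from which the order was taken. Of the 47, 30 were past the DESeq2 threshold, beside 4.39% of all genes tested. The order itself places every KO library above every control, so a high share of calls comes with the selection. Besides Tgfb2, Id4 was the only member among the 47, and Rbp4, a retinol carrier gene taken here as a delta cell marker, was the only fixed marker gene. Rbp4 had 15060, 24494, 11752 and 8547 normalized counts in controls 1 to 4, against 47167 (KO 1), 54008 (KO 2) and 30558 (unnumbered KO). The order was looked for after the values had been seen, and no explanation was tested.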
